A study of Mus musculus with 2 samples.

Results

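The genes described here are 37 DNA damage response and repair genes of the mouse, a fixed list of sensors, signalling proteins and enzymes that find and mend broken or altered DNA. All 37 symbols matched the RefSeq gene table of GRCm38 (mm10), which holds 49595 genes on chromosomes 1 to 19, X and Y, 21774 of them protein-coding. A gene was called marked when at least 1 bp of a deposited H3K9me3 peak fell inside the gene or up to 5 kb outside either of its ends. The values come from 1 H3K9me3 ChIP library and 1 control library, with no replicate. Both were made from intestinal stem cells with high GFP and low CD24, sorted from 12 pooled mice of the C57BL/6 strain at 8 weeks of age. The mice carried Lgr5-EGFP-IRES-creERT2 together with setdb1fl/fl. The GFP and the inducible Cre recombinase are driven from the Lgr5 locus, which is active in crypt stem cells. The floxed Setdb1 gene encodes an H3K9 methyltransferase, and no label used here says whether it had been deleted. The control is called input in its title and IgG under its antibody. The mark does not measure expression, so the sort could not be checked with stem cell markers. Of 5 such genes, Axin2 had 5 peaks, Lgr5 had 4, Ascl2 and Smoc2 had 1 each and Olfm4 had none.

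H3K9me3 is a histone mark laid down by SETDB1 and related enzymes over silent chromatin, above all over repeats and retroviral elements. Repair genes are housekeeping genes whose products are needed in dividing cells such as those of the crypt. The pathways differ in the lesion they act on. Broken duplexes are joined by homologous recombination or by end joining, damaged bases are cut out by base excision, mispaired bases by mismatch repair, bulky lesions by nucleotide excision, and cross-links are handled by the Fanconi anaemia proteins. The question put to the peak list is which of these genes carry the mark, where along the gene, and how high.

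Of the 37 repair genes, 20 were marked (54.1%, exact Clopper-Pearson 95% interval 36.9 to 70.5%), and 55.6% of all protein-coding genes were marked by the same rule. The share is close to that background, so the count alone is no result about these genes. Among the 500 protein-coding genes nearest in length to each member, the mean share marked was 62.2%, a difference of -8.19 percentage points for the repair genes. With peaks of at least 8-fold over control the difference was 1.18 points, above 0. This filter removes no peak at the lowest control value, 0.5 tag, where even the lowest peaks, of 9 tags, have a fold of 12.32. The counting interval of the first gap ran from 25.3 points below (-25.3) to 8.26 points above genes of the same length. It covers the counting error of the members alone, and it holds 0. Together the 20 genes had 43 peaks, none shared by 2 members. Peaks were counted at 18 per Mb of member window, and at 22 per Mb over the windows of genes of the same length. Of the members, 6 had 1 peak, 8 had 2, 4 had 3, 1 had 4 and 1 had 5.

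The median normalized tag count, which is the ChIP tags of a peak scaled by the caller to a fixed library total, was 14.1 at repair genes (quartiles 11 and 23.3), against 16.2 for the 21551 peaks within 5 kb of any protein-coding gene and 17.3 for all 40119 peaks. The order-statistic interval of the members' median, 11.5 to 19.9, holds both of those values. It follows the spread among peaks and treats them as separate, though several lie at the same gene. It is given as a description and not as a test. The peaks at repair genes ranged from 9.43, the lowest value in the whole list, to 50.8. Of the 43, 17 stood above the median of all peaks, and 20 (46.5%) had a width of exactly 500 bp. That width was seen in 35.7% of peaks within 5 kb of a protein-coding gene and in 31.9% of all peaks. A peak of the top 10% by normalized tag count, at or above 50.8, was present at 1 of 37 repair genes and at 6.61% of protein-coding genes. The member is Xrcc4, and its tallest peak sits on that threshold. A count with peaks above the threshold alone was added after the values were seen. It gave 0 of 37 repair genes, against 6.46% of protein-coding genes.

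**Figure D1:**
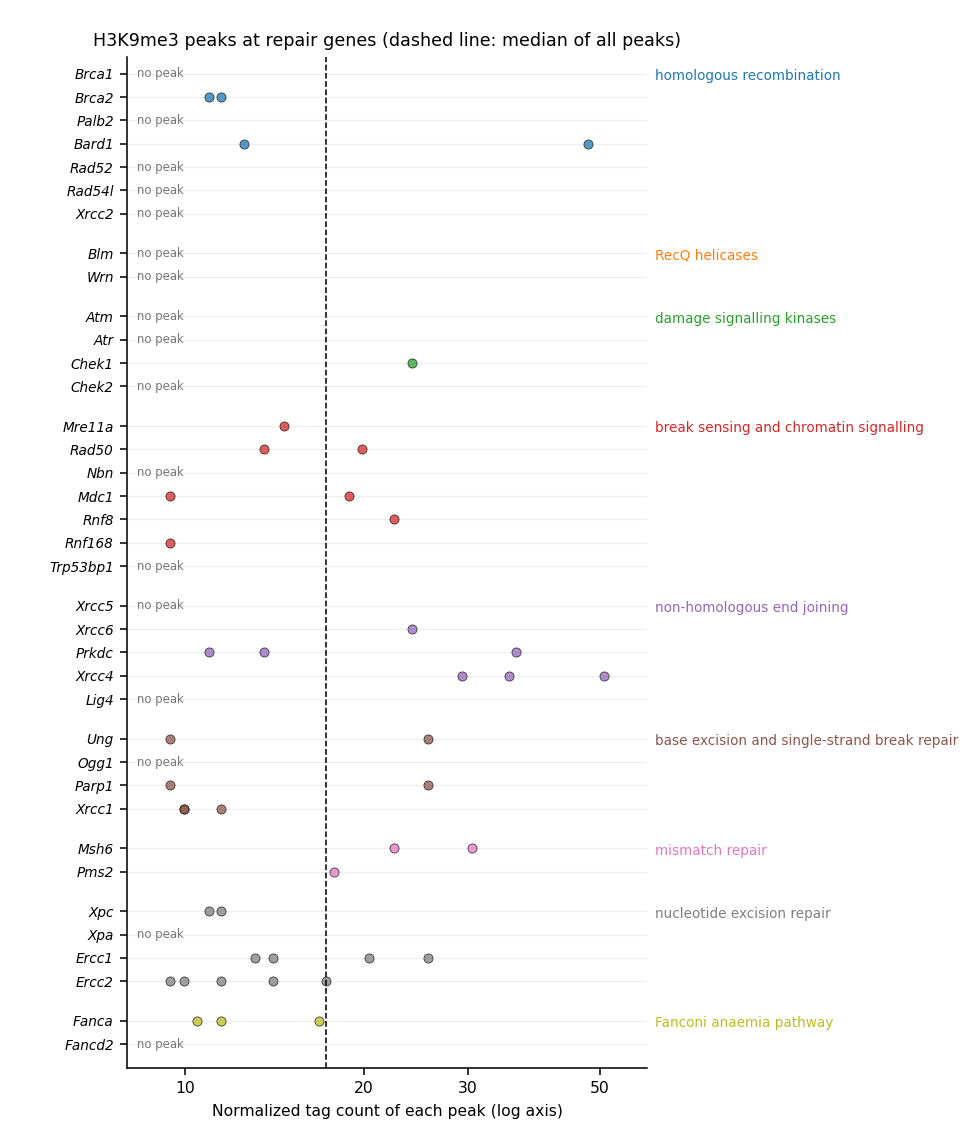
Each point is 1 H3K9me3 peak within 5 kb of a repair gene, placed by its normalized tag count (horizontal log axis); genes run down the page by pathway, and the dashed line is the median of all deposited peaks, 17.3. Points lie between 9.43 and 50.8, 17 genes have no peak, and the highest points belong to Xrcc4 and Bard1.

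Depth sets how far these heights can be told apart. The lowest peaks of the list rest on 9 tags, with a counting interval of 4.12 to 17.1 (exact Poisson, 95%), and the median peak at a repair gene rested on 13.5. Over the 43 peaks the ChIP tags, scaled to the control library, summed to 512, and the control tags summed to 46.5, a ratio of 11 (8.19 to 15.2 by counting error). The same ratio over all peaks was 10.2. In 22 of the 43 peaks (51.2%) the control stood at its lowest deposited value, 0.5 tag. The share was 44.5% for peaks within 5 kb of a protein-coding gene and 43% for all peaks. A fold over control at 0.5 tag depends on that value. The ratio of sums depends on it too, and its interval takes these values as counted tags. No deposited peak had a fold below 4, so the interval is not that of an unselected ratio. No peak at a repair gene had more than 3.5 control tags, while the highest control value in the list was 1585.5. Apart from the interval of the median, which follows the spread among peaks, all intervals cover counting error alone.

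**Figure D2:**
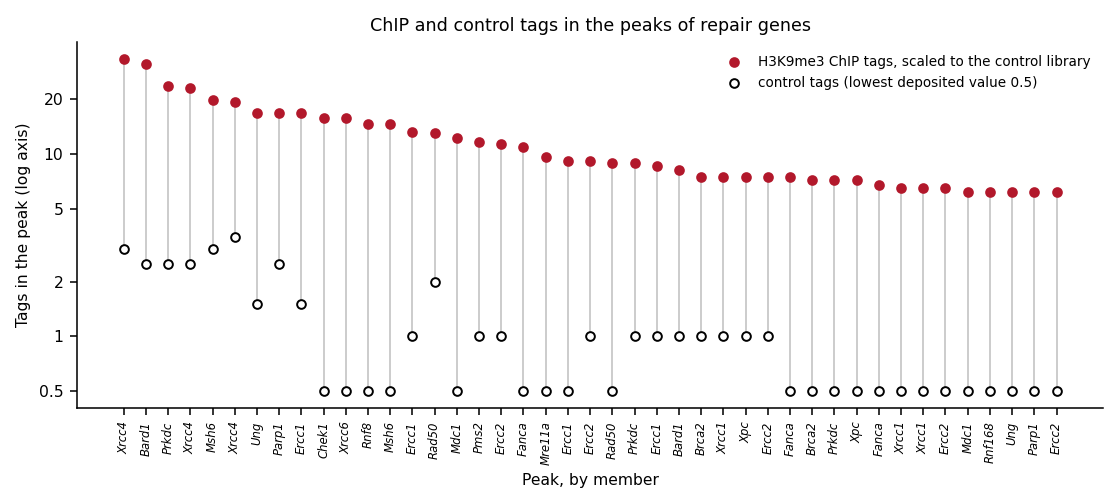
For each of the 43 peaks, the filled point gives the H3K9me3 ChIP tags scaled to the control library and the open point the control tags (vertical log axis), with peaks ordered by ChIP tags. ChIP points run from 33.2 at Xrcc4 to 6.2, and control points from 3.5 to 0.5, with 22 open points on 0.5.

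Peaks at start sites could be counted only for repair genes with a listed promoter window. RefSeq promoter windows, which run from 250 bases before to 50 after a start site, matched 30 of the 37 genes. A peak touched such a window at 4 of the 30, and 17.8% of 17492 protein-coding genes with a window were touched. The count is near that share, so it is no result about these genes. Rad50 and Xpc have peaks at an end of their spans but no listed window or strand. Whether those peaks lie at a start site could not be told. The 4 genes with a touched window are Xrcc4, Parp1, Chek1 and Mre11a. Their windows are printed because they tie the peaks to sequence. They come from RefSeq on GRCm38.p6, 5′ to 3′ on the gene's strand, and capitals mark the bases inside the deposited peak. Peak edges are those of the caller and are not exact to the base.
Xrcc4, chr13:90089559-90089858, minus strand: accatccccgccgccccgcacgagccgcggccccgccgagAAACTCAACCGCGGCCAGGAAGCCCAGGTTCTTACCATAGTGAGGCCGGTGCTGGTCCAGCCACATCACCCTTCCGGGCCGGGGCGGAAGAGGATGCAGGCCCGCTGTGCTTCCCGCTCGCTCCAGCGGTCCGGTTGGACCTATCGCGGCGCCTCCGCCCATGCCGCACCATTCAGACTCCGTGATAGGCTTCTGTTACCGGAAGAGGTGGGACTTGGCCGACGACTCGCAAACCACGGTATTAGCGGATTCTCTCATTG
Parp1, chr1:180568641-180568940, plus strand: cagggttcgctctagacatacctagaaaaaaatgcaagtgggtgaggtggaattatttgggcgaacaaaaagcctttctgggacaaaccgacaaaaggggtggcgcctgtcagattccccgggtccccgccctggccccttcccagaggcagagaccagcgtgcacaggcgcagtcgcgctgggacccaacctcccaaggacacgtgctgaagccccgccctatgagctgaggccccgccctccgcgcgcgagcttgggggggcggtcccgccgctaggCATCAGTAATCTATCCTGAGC
Chek1, chr9:36726609-36726908, minus strand: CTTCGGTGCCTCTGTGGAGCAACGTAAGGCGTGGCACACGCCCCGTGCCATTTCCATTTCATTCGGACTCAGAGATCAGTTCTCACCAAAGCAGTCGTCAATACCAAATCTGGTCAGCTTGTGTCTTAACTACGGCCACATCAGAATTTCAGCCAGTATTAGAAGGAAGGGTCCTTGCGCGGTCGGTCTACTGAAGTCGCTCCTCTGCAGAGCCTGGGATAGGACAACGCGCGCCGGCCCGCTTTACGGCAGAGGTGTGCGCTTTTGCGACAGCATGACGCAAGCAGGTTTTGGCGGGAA
Mre11a, chr9:14784404-14784703, plus strand: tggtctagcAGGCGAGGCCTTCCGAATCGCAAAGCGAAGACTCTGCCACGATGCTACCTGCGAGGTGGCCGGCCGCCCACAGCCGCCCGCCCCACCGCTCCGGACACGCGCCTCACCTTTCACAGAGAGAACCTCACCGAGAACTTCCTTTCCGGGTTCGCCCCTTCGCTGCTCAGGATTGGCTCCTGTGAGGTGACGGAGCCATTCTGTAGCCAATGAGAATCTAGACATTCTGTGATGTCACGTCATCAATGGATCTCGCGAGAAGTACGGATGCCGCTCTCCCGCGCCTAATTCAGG
The peak at Chek1 covered all 300 bases of its window, the one at Mre11a 291, the one at Xrcc4 260 and the one at Parp1 the last 21. All 4 windows were rich in CG pairs, with 31 in Xrcc4, 26 in Mre11a, 22 in Chek1 and 20 in Parp1. The 28 windows of members that no peak touched held 7 to 37 CG pairs (median 21.5), so the touched windows lay within their range. Over all protein-coding windows, the median was 19 CG pairs in the 3462 touched by a peak and 11 in the others. The CCAAT box was sought on both strands and lay in a window of 18 of the 30 member genes, Mre11a among them, and in 38.2% of protein-coding windows. TTTCCCGC, a form of the site bound by E2F factors, lay in 6 of the 30 member genes (Brca2, Bard1, Chek2, Mdc1, Xrcc6 and Msh6). It lay in 1.41% of protein-coding windows, and not in full in the 4 touched windows. The Chek1 window ends in GCGGGAA, the start of that string on the other strand, so its edge may cut off a match. TTTGAA was found in 2 member genes, Bard1 and Rnf8 (16% of protein-coding windows), and TTTGGCGC in none (0.635%). A match is a description of letters and not a binding site.

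In the homologous recombination group, 2 of 7 genes were marked, with a mean of 60.2% marked among genes of the same length. Among the 19842 peaks whose caller score, as deposited, lay above the median, the count was 1 of 7, against 37.3% at the same length. Brca1, Palb2, Rad52, Rad54l and Xrcc2 had no peak. Bard1, the partner of BRCA1 in a ubiquitin ligase, had 2 peaks inside the gene. The taller one (chr1:71085446-71086654) had a normalized tag count of 47.7, from 45.5 tags (33.3 to 60.8), with 31.1 scaled ChIP tags against 2.5 control tags. It lay 16.9 kb into the gene from the listed start site and ranked at percentile 88.7 of all peaks, the second tallest among the 37 genes. The other held 12 tags. Brca2, which loads the recombinase onto single-stranded DNA, had 2 peaks of 500 bp inside the gene, the taller at chr5:150548679-150549179 with a normalized tag count of 11.5 and 7.5 scaled ChIP tags against 1 control tag. Both were low in the list by height, at percentiles 24.5 and 20.6. The nearest peak to Brca1 was 29.4 kb away and the nearest to Rad52, a strand-annealing protein, was 114 kb away, the widest gap of any member. Palb2, which bridges BRCA1 and BRCA2, had its nearest peak at 26022 bp, Xrcc2, a gene of homologous recombination, at 28.9 kb, and Rad54l, a translocase of the same pathway, at 17.6 kb.

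The RecQ helicases Blm and Wrn, which unwind recombination intermediates, had no peak, where genes of their length were marked in a mean of 74.6%. Their nearest peaks lay at 25.6 and 10.1 kb. Genes as long as Wrn (151 kb) were marked in 81.4% of cases, and genes as long as Blm (80.2 kb) in 67.8%.

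Among the damage signalling kinases, 1 of 4 was marked, where genes of the same length had 63.8%. Among peaks with control tags above their lowest value it was 0 of 4, against 47.1% at the same length, since the Chek1 peak has the lowest control value. Chek1, the kinase that acts below ATR in the checkpoint, had 1 peak over its start (chr9:36726018-36727082), with a normalized tag count of 24.1 from 23 tags (14.6 to 34.5). The peak held 15.7 scaled ChIP tags against 0.5 control tag, and its centre lay 0.108 kb past the start site. No other gene of the table overlapped it. The apical kinases Atm and Atr and the ATM target Chek2 had no peak. Atm had its nearest peak 55.0 kb away, Atr 30.7 kb and Chek2 31.0 kb.

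Of the genes that sense breaks and signal through chromatin, 5 of 7 were marked, where genes of the same length had 61%. The count was 2 of 7 among peaks with a score above the median (38.7% at the same length) and 1 of 7 among peaks with control tags above their lowest value (44.2%), with Rad50 marked in both. The nuclease Mre11a and the ATPase Rad50 form a complex with NBN at broken ends. Mre11a had 1 peak over its start (chr9:14784413-14785186), with a normalized tag count of 14.7 and 9.6 scaled ChIP tags against 0.5 control tag. The peak also overlapped Ankrd49, so it cannot be given to either gene alone. Rad50 had a peak at the higher-coordinate end of its span (chr11:53706610-53707253), with a normalized tag count of 19.9 and 13 scaled ChIP tags against 2 control tags, and another 1865 bp beyond that end with a count of 13.6. Nbn had no peak within 41.6 kb. Mre11a lost its mark under both of these filters, so of the complex Rad50 alone was marked there.

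Mdc1, the reader of phosphorylated histone H2AX, had 2 peaks in the later part of the gene. The taller (chr17:35858129-35858958) had a normalized tag count of 18.9, with 12.3 scaled ChIP tags against 0.5 control tag. The ubiquitin ligase Rnf8 had 1 peak across its far end (chr17:29641289-29642288), with a count of 22.5 and 14.7 scaled ChIP tags against 0.5 control tag. That peak also overlapped Gm28043, so it cannot be given to either gene alone. Rnf168, the ligase that acts after RNF8, had 1 peak 2.96 kb past its start (chr16:32280173-32280673) with a count of 9.43 and 6.2 scaled ChIP tags against 0.5. The Rnf168 peak is one of those at the lowest value in the list. Trp53bp1, which favours end joining over resection, had no peak, and the nearest was 10061 bp away.

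In end joining, 3 of 5 genes were marked, where genes of the same length had 70.4%, and this group held the single tallest peak. Xrcc4, the scaffold of the ligation complex and the longest member at 241 kb, had 3 peaks. The tallest (chr13:90042848-90044013) lay 46.2 kb into the gene and had a normalized tag count of 50.8 from 48.5 tags (35.8 to 64.2), with 33.2 scaled ChIP tags against 3 control tags. The peak over its start had a count of 29.3 and overlapped the neighbouring gene Tmem167, and its 3.5 control tags and fold of 5.47 were the highest control value and the lowest fold at any repair gene. The peak near the far end had a count of 35.1. All 3 peaks of Xrcc4 stood high in the list, at percentiles 76.2 to 90, and for a gene of its length 3 peaks were close to the mean of 2.95.

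Prkdc, the catalytic subunit of the DNA-dependent protein kinase, had 3 peaks over 205 kb. Its tallest (chr16:15744220-15745398) lay in the middle of the gene with a count of 36.1 and 23.6 scaled ChIP tags against 2.5 control tags. Of the Ku genes, whose products bind broken ends, Xrcc5 had no peak, with the nearest 22.8 kb away, and Xrcc6 was marked through a peak outside its span. That peak (chr15:81982881-81983999) had a count of 24.1 and 15.7 scaled ChIP tags against 0.5 control tag. It lay 3834 bp before the span, with its centre at -32.9 kb from the listed start site, which is inside the span, so its link to Xrcc6 rests on the 5 kb window. Lig4, the ligase of the pathway, had no peak within 29.0 kb.

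Base excision and repair of single-strand breaks had 3 of 4 genes marked, with 7 peaks, where genes of the same length had 56.8% marked. Parp1, which senses strand breaks, had 1 peak that began beside its start site (chr1:180568920-180569756), with a count of 25.7 and 16.8 scaled ChIP tags against 2.5 control tags, and another of 9.43 late in the gene. Xrcc1, the scaffold that gathers the repair enzymes, had 3 peaks of 500 bp, the tallest at chr7:24567651-24568151 with a count of 11.5 and 7.5 scaled ChIP tags against 1 control tag. They stood at percentiles 11.8 to 24.5 of the list. Ung, the uracil glycosylase, had peaks on either side and none in its span. The taller (chr5:114127502-114128352) had a count of 25.7 and 16.8 scaled ChIP tags against 1.5 control tags, and it overlapped Alkbh2, a dioxygenase gene of direct reversal that overlaps Ung. Ogg1, the glycosylase of oxidized guanine, had no peak, and the nearest was 19.5 kb away.

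Both mismatch repair genes were marked, where genes of the same length had 60.4%. With the gene span alone 1 of 2 was marked (52.7% at the same length), and likewise with 2 kb on either side (56.6%). Pms2 was unmarked in both. Msh6, whose product recognizes mispairs, had peaks before and after its start site, the window itself remaining outside them. The one after it (chr17:87975259-87976011), centred 0.585 kb past the start site, had a count of 30.4 from 29 tags (19.4 to 41.6), with 19.8 scaled ChIP tags against 3 control tags. The one before it had a count of 22.5 and 14.7 scaled ChIP tags against 0.5 control tag. Pms2, the endonuclease subunit, had 1 peak 2093 bp beyond its far end (chr5:143974838-143975656), with a count of 17.8 and 11.6 scaled ChIP tags against 1 control tag. The Pms2 peak overlapped Gm17135 and LOC115486439, so its link to Pms2 rests on the 5 kb window.

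Nucleotide excision repair had the most peaks, 11 at 3 of 4 genes, where genes of the same length were marked in 56.8%. Among peaks with a score above the median 1 of 4 was marked (35.7% at the same length). Of the 11 peaks, 9 belonged to Ercc1 and Ercc2. These neighbours on chromosome 7 are 25.5 kb apart and encode a subunit of the incision nuclease and a helicase of TFIIH. Ercc2 had 5 peaks over 13.7 kb and its flanks, and 2.2% of genes of its length had as many or more. Ercc1 had 4 over 12.5 kb, matched or passed by 4.8% of genes of its length. At least 4 peaks were seen at 2 of 37 repair genes and at 8.07% of protein-coding genes of any length. None of these peaks was tall. The tallest at Ercc1 (chr7:19341616-19342724) lay 1343 bp before the span with a count of 25.7 and 16.8 scaled ChIP tags against 1.5 control tags, and the tallest at Ercc2 (chr7:19398604-19399412) lay 2910 bp beyond it with a count of 17.3 and 11.3 scaled ChIP tags against 1 control tag. The stretch of 61.6 kb around both genes held 12 peaks, 3 of them within 5 kb of neither, and 5 of the 9 peaks overlapped the neighbouring genes Cd3eap, Ppp1r13l or Klc3.

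Xpc, the sensor of helix distortion, had 1 peak at either end of its span, each of 500 bp. The taller (chr6:91515801-91516301) had a count of 11.5 and 7.5 scaled ChIP tags against 1 control tag and overlapped the neighbouring gene Lsm3. The other overlapped Gm52912. Xpa, which verifies the lesion, was unmarked, with a peak 6454 bp from its span, the closest of any unmarked member. Just inside the 5 kb limit, the farthest peaks were those of Ercc2 at 3857 bp and Xrcc6 at 3834 bp.

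Of the Fanconi anaemia genes, Fanca, a core complex subunit, had 3 peaks in the later part of the gene, the tallest at chr8:123277061-123277895 with a count of 16.8 and 10.9 scaled ChIP tags against 0.5 control tag. All 3 had the lowest control value, so Fanca was unmarked among peaks with control tags above it. Fancd2, which the core complex ubiquitinates, had no peak, and the nearest was 29.4 kb away. Genes of the length of these 2 were marked in 62%.

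**Figure D3:**
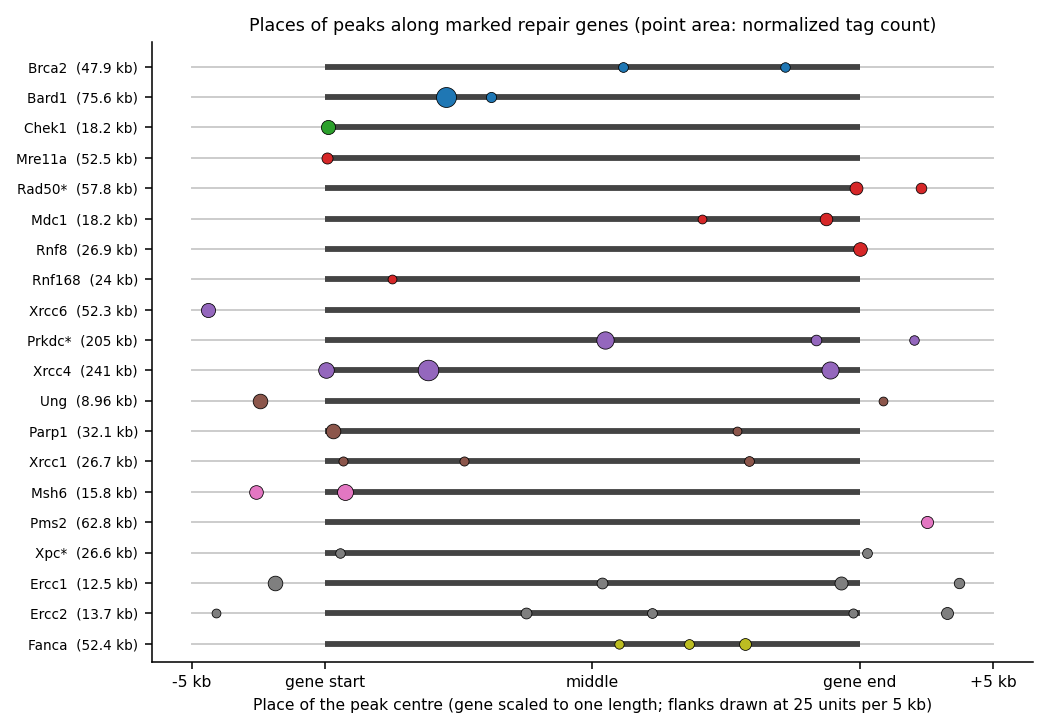
Each row is 1 of the 20 marked repair genes with its length, drawn from start (left) to end and scaled to one length, with thin lines for the 5 kb flanks; points mark peak centres, coloured by pathway, with area in proportion to normalized tag count. Genes with an asterisk (Rad50, Prkdc, Xpc) are drawn by rising coordinate, and 30 of the 43 centres lie inside a gene.

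Across the group, 30 of 43 peak centres lay inside the gene, and 32 peaks touched a span (74.4%, against 81.9% for genes of the same length). A peak touched the span of 17 of the 37 genes, and of 46.6% of protein-coding genes. The start site was listed for genes with 36 of the peaks, and 6 of those centres lay within 1 kb of it, at Chek1, Mre11a, Xrcc4, Parp1, Msh6 and Xrcc1. The same count was not made over all protein-coding genes, so it is given as a description. Of the 43 peaks, 12 also overlapped another gene of the table.

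Among members, the share marked was highest at middle length and lowest in the longest genes. The 20 marked genes had a median length of 29.5 kb (8.96 to 241 kb) and the 17 unmarked genes 35 kb (7.66 to 151 kb). Spearman's rho between length and peaks was -0.129 over the 37 genes and 0.314 over all protein-coding genes, as descriptions. With lengths divided at 30 and 80 kb, limits chosen after the values were seen, 10 of 17 short genes were marked where genes of their length had 56.4%, and 8 of 12 of middle length, where the mean was 62.4%. Of the 8 genes of at least 80 kb, 2 were marked, Prkdc and Xrcc4, where genes of their length had a mean of 74.5%. The 6 long genes without a peak were Wrn, Trp53bp1, Atm, Atr, Xrcc5 and Blm, and each stayed without one at 10 kb on either side. For Trp53bp1 and Wrn the nearest peak lay just beyond that limit, at 10061 and 10099 bp. Such a small set chosen in this way was given no test.

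By median, marked members had more peaks nearby than unmarked ones, with wide overlap. Leaving out a gene's own window, the 500 kb on either side held a median of 29 peaks (4 to 94) at marked genes and 14 (6 to 44) at unmarked genes. Spearman's rho between a gene's peaks and those nearby was 0.426 over 37 genes and 0.314 over the 35 without Ercc1 and Ercc2, which share most of their flanks and were left out after the values were seen. Protein-coding genes in the same 500 kb had medians of 17.5 (3 to 54) at marked genes and 13 (4 to 44) at unmarked genes. The genes with the most peaks nearby, Ercc2 (94) and Ercc1 (91), also had the most of their own, 5 and 4. Other genes did not follow the pattern. Bard1 had 4 peaks nearby and 2 of its own, and Xrcc4 had 6 nearby and 3 of its own. Brca1 had 44 nearby and none of its own. The part that local peak density has in the marks was not tested.

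**Figure D4:**
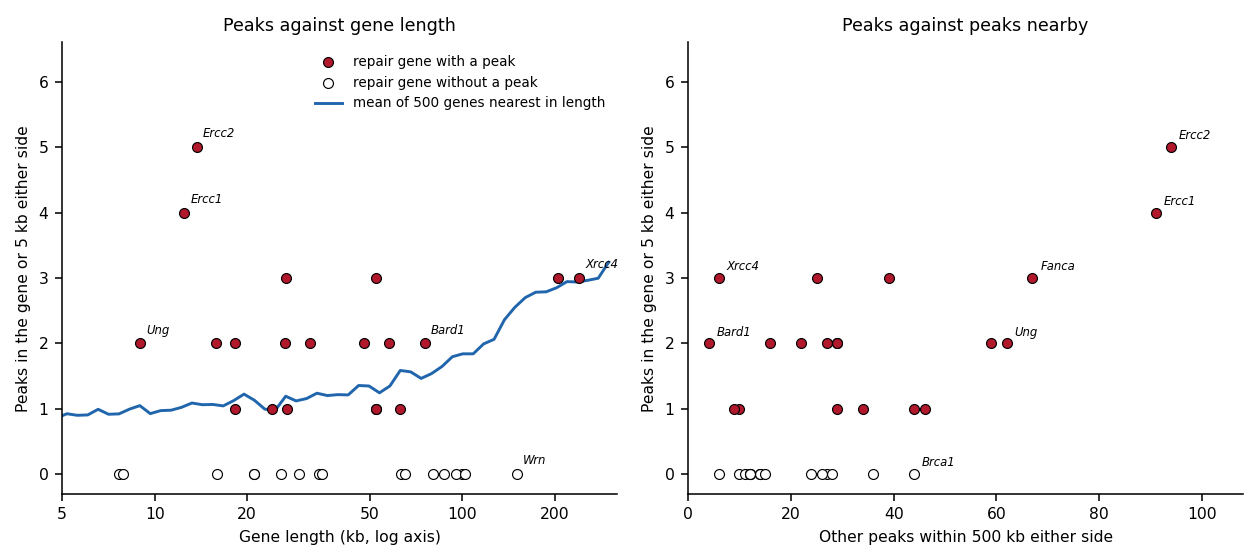
Left, peaks per repair gene against gene length (log axis), with the mean of the 500 protein-coding genes nearest in length as a line; right, the same peaks against the number of other peaks within 500 kb on either side. Filled points are the 20 marked genes and open points the 17 unmarked; Ercc1 and Ercc2 stand far above the line, Wrn lies far below it, and Bard1 and Xrcc4 have few peaks nearby.

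The other repair genes, a list of 90 further symbols of the same pathways and of translesion synthesis and direct reversal, were marked in a share close to that of genes of the same length. Of 89 that matched, 52 were marked (58.4%, 47.5 to 68.8%), against 59.5% for genes of the same length. Their 94 peaks had a median normalized tag count of 14.7, and the ratio of scaled ChIP to control tags was 11.4. In mismatch repair 0 of 3 further genes were marked, Msh3, Pms1 and Mlh3, where genes of the same length had 69.9%, and in the RecQ group 1 of 4, against 59.1%. Homologous recombination had 10 of 16 marked (60.7% at the same length), end joining 4 of 5 (60.5%), and break sensing 5 of 7 (58.3%). Base excision had 9 of 18 (55.5%), nucleotide excision 7 of 11 (57.3%), and the Fanconi genes 7 of 10 (59.3%). Damage signalling had 3 of 6 (57.5%), and translesion synthesis and direct reversal 6 of 9 (67.2%). Differences between pathways were not tested.

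The most peaks in the wider list were 4, and the genes with that number included Fance, Rad51b and Recql5. Rad51b, a recombination gene of 551 kb, had a tallest peak (chr12:79566901-79569014) with a normalized tag count of 55 and 3 control tags. Fancl, the ubiquitin ligase of the Fanconi pathway, had the tallest of the list (chr11:26426339-26427688), with a count of 63.4 and 2.5 control tags. Rev3l, the catalytic subunit of polymerase zeta, had a peak (chr10:39763799-39764997) with a count of 57.1 and 1 control tag. These 3 of the 89 genes had a peak of the top 10%, as had 6.61% of protein-coding genes. Each of the 3 is longer than 80 kb, as is Xrcc4. That limit was chosen after the values were seen, and the share of all long genes with such a peak was not counted.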

How the data were processed

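H3K9me3 was profiled by ChIP sequencing in 1 library of sorted intestinal stem cells, beside 1 control library. The submitters' processing notes name Bowtie2 2.2.8, HOMER 4.10.1, GRCm38 and mm10. The settings of peak calling are not given in the sources read. Per the file headers, the normalized tag count deposited by the authors is a signal per peak, ChIP tags scaled to a fixed total, and the scaled ChIP tags and control tags are signals relative to the control library. The deposited score, the fold over control (a ratio, lowest 4) and the caller's p-value belong to each peak. The score and fold were used only to filter or describe peaks, and the p-value was not used.

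Low normalized tag counts, those under 50, were whole steps of 0.524, the worth of 0.5 tag, in 100% of cases to within 0.1 of a step. Dividing by the step gave tags per peak. The scaling to the control was by 0.684 per ChIP tag. Depth is otherwise known only through the peaks, and a gene without a peak is one where the mark was not called at this depth. Gene spans and promoter windows came from RefSeq tables of GRCm38.p6, rows with scaffold coordinates left out. H2ax was found by its older symbol and 1 of the 90 further symbols matched no gene. Members were compared with the 500 protein-coding genes nearest in length. No test was run, since each group has 1 library. The counting was tested on simulated data. Members, pathways and lists were chosen with earlier results of these data known. All 37 members are described, and from the wider list the genes with most peaks or a peak of the top 10%, except 1 that is not reported here. Windows, peak filters, the overlap rule and the length match were varied. Python 3.11.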

Additional observations from a re-analysis of the deposited data

How the results depend on the processing

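The number of marked members was 20, and 17 to 21 with the gene span alone, 2 kb or 10 kb on either side, and with a fold of at least 8 or with at least 50% of the peak inside the window. It was 13 among peaks with a score above the median (19842 peaks), which lost Brca2, Mre11a, Mdc1, Rnf168, Xrcc6, Xpc and Ercc2, and 13 among the 22885 peaks with control tags above their lowest value, which lost Chek1, Mre11a, Mdc1, Rnf8, Rnf168, Xrcc6 and Fanca. Fewer peaks enter both by construction, and genes of the same length were marked in 39.9% and 45.7% under them. Without a window Xrcc6, Ung and Pms2 lost their mark, and with 10 kb Xpa gained one. The difference from genes of the same length was -8.19 points and ranged from -11.5 to 1.18 over 9 alternatives. The value above 0 came with a fold of at least 8, and all lay inside the counting interval. That interval is wide and the alternatives recount the same genes, so this is no measure of stability. In the wider list, 52 genes were marked, 29 among peaks with a score above the median and 38 to 58 under the other 5 alternatives. Member peaks numbered 32 to 53, their median normalized tag count was 13.8 to 14.7, and the ratio of sums was 8.85 to 13.1. Members with a peak of the top 10% numbered 0 with peaks above the threshold alone, an alternative added after seeing the data, against 1 with peaks at the threshold counted in. No paired analysis was possible because each group has 1 library. Depth limits the low peaks most, since a peak of 9 tags has a counting interval of 4.12 to 17.1.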
